A study of Homo sapiens with 8 samples.

Results

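The 39 DNA replication genes described here encode the proteins that license origins, open and copy the DNA, join the lagging strand, supply deoxynucleotides and switch the cell from G1 into S phase. They were named gene by gene, and each was found by its symbol in the deposited table. All 39 of the 39 are in the table of 60710 genes, and all 39 were among the 16186 genes that passed the filter on low counts. RNA was measured in A375 cells, an established human metastatic melanoma line grown in DMEM medium with 10% FBS. Cells were treated with 50 ng/mL human recombinant TNF for 24 h (TNF, 4 libraries) or left untreated (NT, 4 libraries). The study ran 4 independent experiments, and each gave 1 TNF and 1 NT library, numbered here by experiment. The data speak only for this single cell line, at 1 dose and 1 time.

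DNA replication starts in G1, when the origin recognition complex, CDC6 and CDT1 load the ring of MCM2 to MCM7 onto DNA. At the start of S phase, CDC45 and the GINS complex join the ring and turn it into the active helicase. DNA polymerases then copy both strands while held on the DNA by the sliding clamp PCNA, which the RFC complex loads. Most of these genes are transcribed at the G1/S boundary by E2F factors, which the retinoblastoma protein holds back in G1. Since RNA was taken from whole cultures, fewer cells in S phase and less RNA of a gene per cell cannot be told apart in these values.

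The libraries held between 33317454 and 43125094 counts with TNF, and between 30989787 and 44373296 counts without it. The targets of NF-kB, the transcription factor that TNF activates, were checked first. Of NFKBIA, TNFAIP3, CXCL8, ICAM1 and BIRC3, 5 of 5 were higher with TNF, and their summed level was 1926 to 3976 CPM (counts scaled to the library size after TMM normalization) with TNF and 68.1 to 86.4 CPM in NT libraries. Of the melanocyte lineage markers, SOX10 averaged 1177 CPM with TNF and 1025 CPM in NT cells, and the summed level of the 8 markers was 1119.9 to 1325 CPM with TNF and 986 to 1128 CPM in NT libraries. The pigment genes PMEL (0.456 CPM with TNF and 0.458 CPM in NT cells) and MLANA (0.387 CPM with TNF and 0.352 CPM in NT cells) were near 0, and TYR, DCT and TYRP1 had 0 to 9 counts in each library. S100B, a calcium-binding protein of the lineage and the only 1 of the 5 markers tested that passed, fell to 3.50, 3.32, 2.64 and 2.75 CPM with TNF, against 20.3, 19.6, 11.7 and 17.5 CPM in NT libraries (log2 fold change -2.50, adjusted p = 6.77e-06 from edgeR). Leukocyte markers summed to 1.94 to 5.40 CPM with TNF and 4.91 to 7.10 CPM without it, fibroblast markers to 3.88 to 8.50 CPM with TNF and 4.38 to 9.47 CPM without it, and endothelial markers to 2.12 to 3.43 CPM with TNF and 0.825 to 1.80 CPM without it. Keratinocyte markers summed to 56.8 to 62.4 CPM with TNF and 57.9 to 74.2 CPM without it. Most of that sum was KRT10, which did not pass (48.7 CPM with TNF and 44.9 CPM in NT cells). KRT5 rose from 0.192 to 1.61 CPM (log2 fold change 3.02, adjusted p = 9.67e-05 from edgeR). KRT14 fell from 18.3 to 8.39 CPM (log2 fold change -1.12, adjusted p = 2.57e-04 from edgeR). The part of these marker sets in the results was not tested. The named 7SL, 7SK and ribosomal RNA genes took 0.0118% of the counts in TNF library 4, 0.0122% in NT library 2 and 0.0119% in NT library 4, against 0.00218% to 0.00392% in the other 5 libraries.

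Expression of the replication genes was lower in TNF-treated cells. The 39 genes together took 0.436%, 0.382%, 0.417% and 0.400% of all counts in TNF libraries 1 to 4, against 0.489%, 0.511%, 0.528% and 0.487% in NT libraries 1 to 4. Every TNF share was below every NT share. These shares are of library totals without TMM scaling, whose factors were 0.928 to 1.00 with TNF and 1.01 to 1.06 in NT libraries. On the scale of library totals the median log2 fold change of all genes was -0.086, so the shares overstate the difference. In edgeR's quasi-likelihood test, 15 of the 39 genes fell with TNF and 0 rose at a Benjamini-Hochberg adjusted p under 0.05 over all 16186 genes, while 24 did not pass. Over all genes tested, 9.9% were called lower and 14.5% higher. No replication gene had an unadjusted p under 0.05 in the higher direction, and DESeq2 and limma voom also called 0 higher. In 15 of the 39, all 4 TNF libraries were below all 4 NT libraries, against 11.7% of all genes, and in 0 were they above, against 15.6%. The fall in the 15 called genes was modest, between 15.4% and 32.0%, and 0 of the 39 passed with a log2 fold change below -1, against 2.39% of all genes. The log2 fold change was negative for 36 of the 39, against 50.5% of all genes, and its median was -0.24, against -0.0035 over all genes.

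Each experiment paired a TNF with an NT library, so the experiment date was also fitted as a block. With this block 25 of the 39 genes fell and 0 rose, against 18.2% lower and 21.3% higher of all genes. The 15 genes stayed called, and ORC1, MCM4, MCM5, MCM10, POLA1, POLD1, PRIM1, LIG1, RPA1 and TK1 joined them. The remaining 14 genes, among them E2F1, CCNE1, CCNE2, DTL, RRM1, RRM2 and FEN1, passed neither test. This count rests on the dates in the column titles of the table. With the NT libraries dated by the sample records that their single files are stored under, the block called 5 of the 39 lower and 0 higher, against 4.95% lower and 9.62% higher of all genes. The 5 were CDC6, MCM3, GINS2, RFC3 and TYMS, so that 10 of the 15 calls and all 10 that had joined were lost. Values with the block given from here on use the dates of the titles. The count without the block rested in part on single libraries, since it was 8 without TNF library 2 and 7 without NT library 3. The share of all genes called lower there was 7.18% and 7.17%, against 9.9% in all 8 libraries. CDC6, MCM3, GINS2, RFC2, RFC3, POLE and TYMS were called whichever single library was left out.

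**Figure D1:**
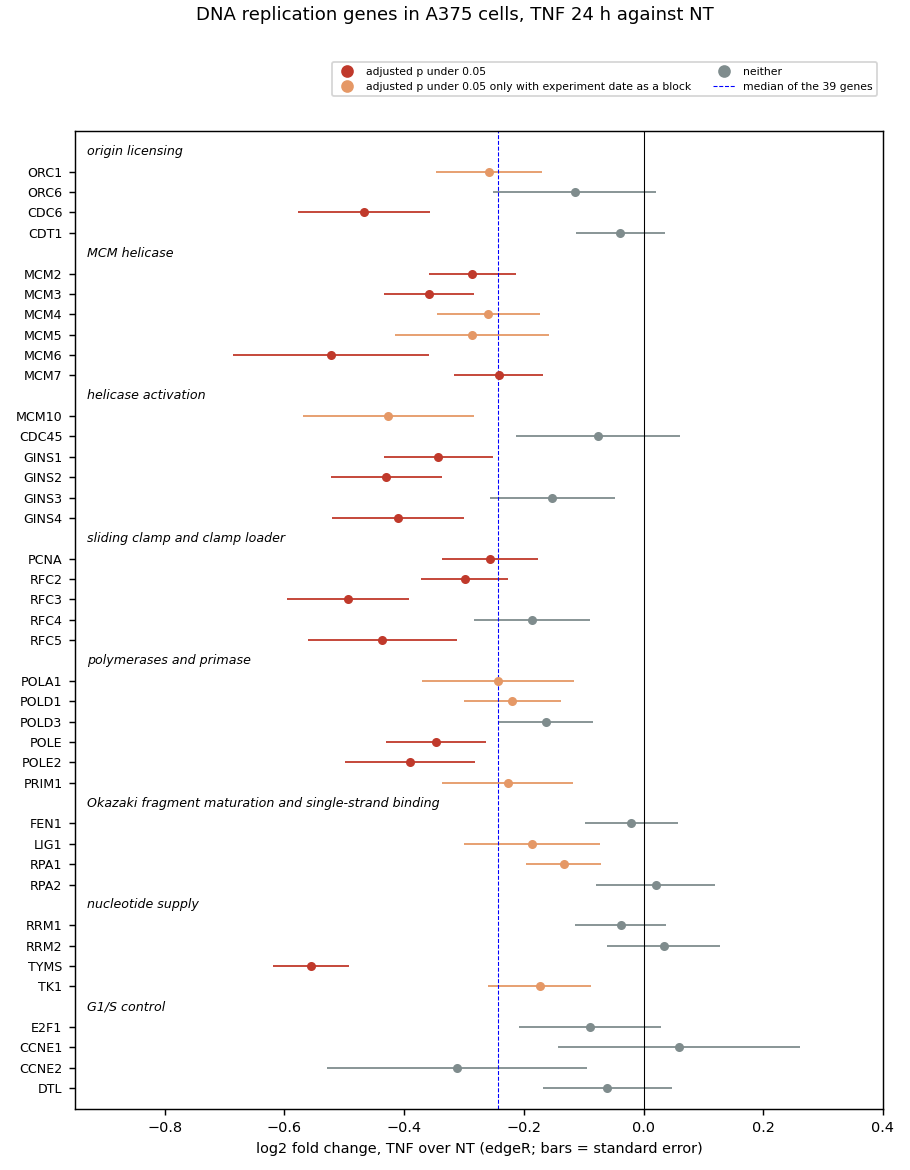
Log2 fold change of each of the 39 DNA replication genes, TNF over NT (x axis, edgeR, bars are standard errors), grouped by role down the page. The 15 genes past the test run from -0.56 (TYMS) to -0.24 (MCM7), the 10 that passed only with the experiment block lie between -0.43 and -0.13, and all genes of the MCM helicase lie below 0.

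The promoters of these genes were read from RefSeq (GRCh38.p14, 250 bases before to 50 bases after the start), since many of them are known E2F targets. A promoter was listed for 33 of the 39 and not for MCM4, MCM5, GINS4, POLD3, RPA2 and CCNE2. The letters TTTGGCGC, TTTCGCGC, TTTCCCGC and TTTGCCGC, common forms of the E2F motif, were searched on both strands, and matches may overlap. At least 1 was present in 18 of the 33 promoters (54.5%), against 3.31% of the 35116 promoters in the table and 4.86% of those of the genes tested. Of the 14 listed genes that fell with TNF, 12 had a match (85.7%), and of the 19 that did not pass, 6 had one (31.6%), a difference that was not tested. CCAAT, the letters bound by NF-Y, was present in 20 of the 33 promoters (60.6%), against 34.6% of all promoters. In the mitosis genes taken up further on, CCAAT was present in 13 of 15 promoters and the E2F letters in 2 of 15. Among the other lists taken up there, the E2F letters were in 5 of 28 promoters of other replication machinery and 1 of 13 of other nucleotide supply. They were in 5 of 20 of E2F, RB and CDK2 control, 3 of 9 of chromatin assembly and 3 of 9 of mismatch and homologous repair. A match describes these letters only and shows no binding. The capitals printed here are alike because the search chose them, so they do not compare genes that fell with genes that did not pass. Promoters without a match are not printed. For each of the 18 genes but MCM6, the match nearest the start is given 5′ to 3′ on the strand of the gene, with the E2F letters in capitals and 8 bases on either side:
CDC6, chr17:40287878-40287901, plus strand: cattcggaTTTGGCGCgagcgcgg
MCM2, chr3:127598405-127598432, plus strand: gaaccactTTTCGCGCGAAAcctggttg
MCM3, chr6:52284731-52284754, minus strand: tcggaagtTTTCGCGCcggggtgg
MCM7, chr7:100101391-100101414, minus strand: gggcgacgTTTCGCGCcaatttcg
GINS1, chr20:25407670-25407693, plus strand: tttgttcgGCGCCAAAgcgcggag
GINS2, chr16:85688970-85688993, minus strand: tcgccgtgGCGGGAAAacggcggc
PCNA, chr20:5126666-5126689, minus strand: cgtcagggGCGGGAAAaggcgtgc
RFC3, chr13:33818086-33818109, plus strand: tggagctcGCGGGAAAacttgtct
POLE, chr12:132687345-132687368, minus strand: gtgggagcGCGCCAAAtttctccc
POLE2, chr14:49688204-49688227, minus strand: cggcggtgGCGCCAAAtcgcaaat
TYMS, chr18:657606-657629, plus strand: ggacggccGCGGGAAAaggcgcgc
CDT1, chr16:88803746-88803769, plus strand: gggcgcccGCGGGAAAtttggcgg
GINS3, chr16:58392458-58392481, plus strand: ccccgggcGCGGGAAAcgagtttc
POLA1, chrX:24693773-24693796, plus strand: atcacaggGCGCCAAAcgcgcgtc
LIG1, chr19:48170443-48170466, minus strand: tcacccctTTTCCCGCcctcctcc
E2F1, chr20:33686390-33686413, minus strand: aaaaaggaTTTGGCGCgtaaaagt
DTL, chr1:212035732-212035755, plus strand: gacgtcagTTTGGCGCggagtttg

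The 11 genes from CDC6 to TYMS fell with TNF in edgeR's test, and the 6 from CDT1 to DTL did not pass, POLA1 and LIG1 among them passing with the block. GINS3, E2F1 and DTL carried their letters within 20 bases of the start. The promoter of MCM6 held the 12 letters TTTGGCGCGAAA at 2 places, each read as a match on both strands, starting 152 and 90 bases before the start of the gene. Its 250 bases before the start are shown with both places in capitals:
MCM6, chr2:135876444-135876693, minus strand: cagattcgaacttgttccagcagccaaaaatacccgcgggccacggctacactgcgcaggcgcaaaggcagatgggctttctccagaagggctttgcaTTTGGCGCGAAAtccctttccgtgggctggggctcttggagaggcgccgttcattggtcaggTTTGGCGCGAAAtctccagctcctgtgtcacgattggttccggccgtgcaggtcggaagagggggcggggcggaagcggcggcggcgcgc

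The origin licensing group was led by CDC6, the ATPase that loads the MCM ring together with ORC and CDT1. CDC6 expression was 80.4, 75.6, 80.3 and 66.8 CPM in TNF libraries 1 to 4, against 85.0, 123, 105 and 105 CPM in NT libraries 1 to 4. Every TNF library lay below every NT library, although the groups came close, since NT library 1 was only just above the highest TNF libraries. CDC6 fell by 27.6% (log2 fold change -0.47, standard error 0.11, adjusted p = 0.0108 from edgeR). ORC1, the largest subunit of the origin recognition complex, had 59.2, 63.3, 57.4 and 57.5 CPM in TNF libraries 1 to 4, against 59.5, 73.8, 73.3 and 77.3 CPM in NT libraries 1 to 4. The NT library of experiment 1 lay among the TNF libraries, while the other 3 were above all of them. ORC1 did not pass (log2 fold change -0.26, standard error 0.088, adjusted p = 0.0569), and it passed with the experiment block (adjusted p = 0.0156). ORC6, the smallest subunit of the same complex, had 26.8, 29.6, 27.0 and 38.7 CPM in TNF libraries 1 to 4, against 27.6, 34.3, 31.8 and 38.4 CPM in NT libraries 1 to 4. Library 4 was the highest of each group, the groups overlapped, and ORC6 passed neither test (log2 fold change -0.11, standard error 0.14, adjusted p = 0.608). CDT1, the loader that geminin holds in check, averaged 124 ± 8.76 CPM with TNF and 127 ± 7.13 CPM in NT cells (SD, n = 4 each), with overlapping groups, and passed neither test (log2 fold change -0.039, adjusted p = 0.762 from edgeR).

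All 6 genes of the MCM helicase, the ring that unwinds DNA ahead of the fork, had lower mean levels with TNF. MCM2, MCM3, MCM6 and MCM7 fell in edgeR's test, and with the experiment block all 6 fell. Over all genes, 9.9% fell without the block and 18.2% with it. With the NT dates of the single records, only MCM3 of the 6 passed with the block (adjusted p = 0.0267), while MCM2, MCM4, MCM5, MCM6 and MCM7 had adjusted p of 0.0870, 0.122, 0.231, 0.0900 and 0.156. MCM3 was 132, 123, 121 and 108 CPM in TNF libraries 1 to 4, against 149, 163, 151 and 157 CPM in NT libraries 1 to 4. Every TNF library was below every NT library, with TNF library 4 the lowest. MCM3 fell by 22.0% (log2 fold change -0.36, standard error 0.076, adjusted p = 0.00564), and it was called under each of the 21 settings of libraries, pairing, scale, filter and tool. MCM2, whose promoter carried its E2F letters just after the start, had 335, 300.2, 317 and 313 CPM in TNF libraries 1 to 4, against 359.7, 395, 417 and 372 CPM in NT libraries 1 to 4. The groups did not overlap, and MCM2 fell by 18.0% (log2 fold change -0.29, standard error 0.072, adjusted p = 0.0148), but not without NT library 3 (adjusted p = 0.0533). MCM7 had 430.0, 416, 398 and 477 CPM in TNF libraries 1 to 4, against 485, 509.9, 521 and 519 CPM in NT libraries 1 to 4. The groups stayed apart, and MCM7 fell by 15.4% (log2 fold change -0.24, standard error 0.074, adjusted p = 0.0362). The call on MCM7 was lost without TNF library 1, 2 or 3 or NT library 2, 3 or 4, with adjusted p up to 0.102. Its exons overlap AP4M1 on the other strand and MIR93 on its own, and whether strand was used in counting is not stated in the sources used here.

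MCM6 is shown as well, a choice made after its values were seen, because it had the largest fall of the ring and also overlapping groups. MCM6 expression was 97.1, 75.1, 96.1 and 60.6 CPM in TNF libraries 1 to 4, against 121, 128, 133 and 90.6 CPM in NT libraries 1 to 4. Library 4 was the lowest of both groups, so that NT library 4 lay below TNF libraries 1 and 3. MCM6 fell by 30.4% (log2 fold change -0.52, standard error 0.16, adjusted p = 0.041), and within the experiments the log2 difference of TNF minus NT was -0.32, -0.77, -0.47 and -0.58 in experiments 1 to 4. TNF was thus lower in each of the 4 experiments, and with the block the adjusted p was 2.12e-04. Without the block the call was lost when TNF library 2 or 4 or NT library 1, 2 or 3 was left out, with adjusted p up to 0.108. MCM4, also shown after its values were seen, had 297, 291, 311 and 255 CPM in TNF libraries 1 to 4, against 322, 361, 379 and 321 CPM in NT libraries 1 to 4. All 4 TNF libraries were below all 4 NT libraries, and MCM4 just missed the threshold (log2 fold change -0.26, standard error 0.086, adjusted p = 0.0502; 0.00338 with the block). MCM5 averaged 149 ± 20.9 CPM with TNF and 181 ± 27.9 CPM in NT cells (SD, n = 4 each), with NT library 4 among the TNF libraries (log2 fold change -0.29, adjusted p = 0.139 from edgeR and 0.00521 with the block).

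**Figure D2:**
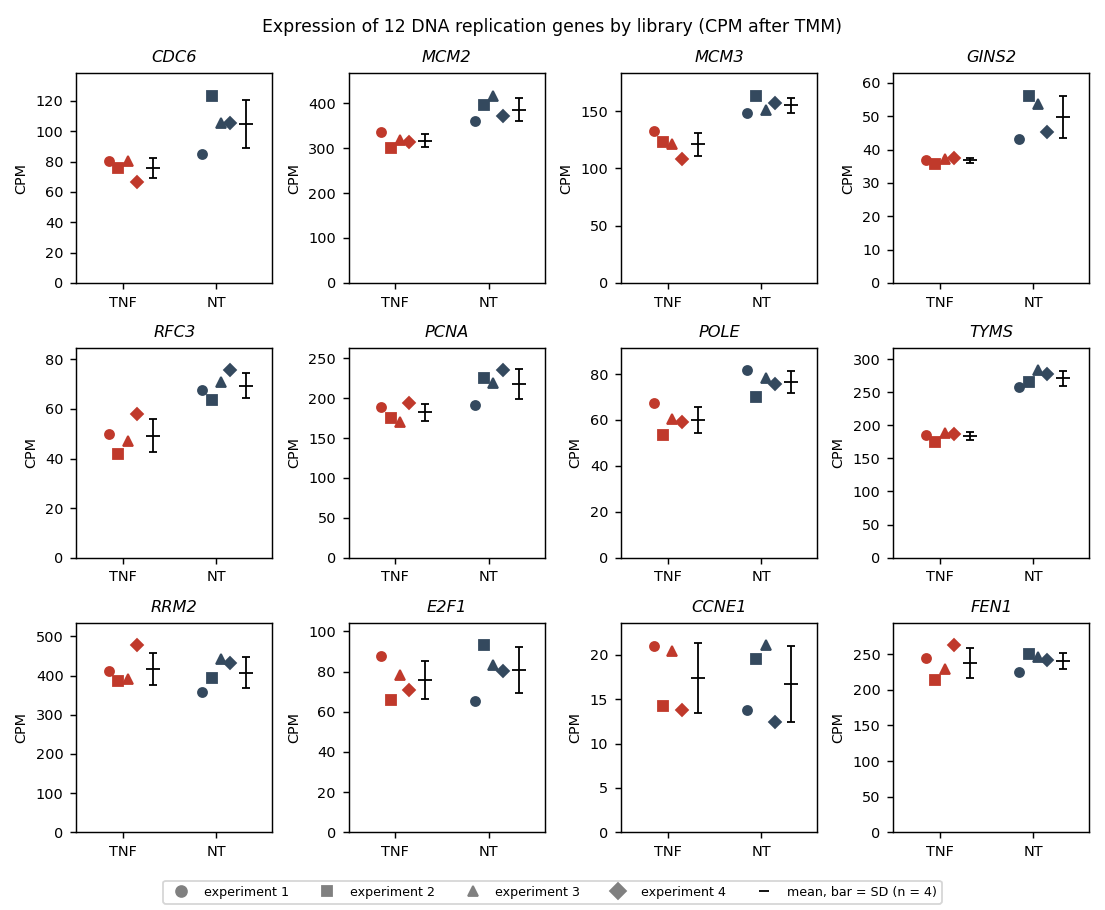
Expression of 12 DNA replication genes in each library (CPM after TMM scaling, axes start at 0), TNF in red and NT in dark blue, with 1 marker shape per experiment and the mean and SD (n = 4) beside each group. In TYMS, MCM3, GINS2, RFC3, POLE, MCM2 and CDC6 every red point is below every blue one, in PCNA 1 red point is above the lowest blue one, and in RRM2, E2F1, CCNE1 and FEN1 the groups overlap.

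The genes that turn the loaded ring into an active helicase all had negative log2 fold changes, against 50.5% of all genes, but not all passed. In edgeR's test 3 of the 6 fell, and with the block 4 of the 6, against 9.9% and 18.2% of all genes. GINS1, GINS2 and GINS4, subunits of the GINS complex that binds CDC45 and the ring, fell. MCM10 passed only with the experiment block, and GINS3 and CDC45 passed neither test. Differences between these genes were not tested. GINS2 had 37.0, 35.7, 37.1 and 37.5 CPM in TNF libraries 1 to 4, against 43.3, 56.1, 53.8 and 45.3 CPM in NT libraries 1 to 4. The TNF libraries lay within 2 CPM of each other and all NT libraries were above them. GINS2 fell by 25.7% (log2 fold change -0.43, standard error 0.092, adjusted p = 0.00629) and was called under each of the 21 settings. GINS1 had 35.8, 26.9, 31.4 and 28.9 CPM in TNF libraries 1 to 4, against 38.9, 39.6, 39.6 and 38.0 CPM in NT libraries 1 to 4. Here the NT libraries were close together and all TNF libraries were lower, with TNF library 2 the lowest. GINS1 fell by 21.1% (log2 fold change -0.34, standard error 0.091, adjusted p = 0.0189), a call that was lost without TNF library 2 or NT library 2 or 3 (adjusted p up to 0.0579). GINS4 had 24.9, 20.4, 24.0 and 18.9 CPM in TNF libraries 1 to 4, against 30.4, 27.7, 33.0 and 26.1 CPM in NT libraries 1 to 4. The groups did not overlap, and GINS4 fell by 24.7% (log2 fold change -0.41, standard error 0.11, adjusted p = 0.0207). That call was lost without TNF library 2 or NT library 1 or 3 (adjusted p up to 0.0677). GINS1, GINS2 and GINS4 share exon positions with genes of the other strand, among them NINL, GSE1 and GPAT4-AS1.

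GINS3 averaged 18.9 ± 1.47 CPM with TNF and 21.0 ± 2.42 CPM in NT cells (SD, n = 4 each), and its groups overlapped (log2 fold change -0.15, adjusted p = 0.34 from edgeR). CDC45, the helicase cofactor, averaged 31.6 ± 5.74 CPM with TNF and 33.3 ± 4.31 CPM in NT cells (SD, n = 4 each) and also overlapped (log2 fold change -0.076, adjusted p = 0.746). MCM10, which is needed to activate the assembled helicase and was chosen after its values were seen, had 49.1, 43.9, 53.0 and 31.2 CPM in TNF libraries 1 to 4, against 55.2, 64.5, 62.6 and 56.0 CPM in NT libraries 1 to 4. All TNF libraries were below all NT libraries, but TNF library 4 was far below the rest. The log2 fold change of MCM10 was -0.43 with a standard error of 0.14, and its adjusted p was 0.0537 without and 0.0147 with the experiment block.

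Of the clamp and its loader, 4 of the 5 genes fell, namely PCNA, RFC2, RFC3 and RFC5, against 9.9% lower of all genes. RFC3, a small subunit of the clamp loader, had 49.8, 41.9, 47.1 and 58.1 CPM in TNF libraries 1 to 4, against 67.7, 63.4, 70.7 and 75.6 CPM in NT libraries 1 to 4. Every TNF library was below every NT library, and library 4 was the highest of each group. RFC3 fell by 29.0% (log2 fold change -0.49, standard error 0.10, adjusted p = 0.00508) and was called under each of the 21 settings. RFC2, another small subunit, had 86.5, 81.0, 84.8 and 75.3 CPM in TNF libraries 1 to 4, against 99.0, 103, 107 and 93.9 CPM in NT libraries 1 to 4. The groups did not overlap, and RFC2 fell by 18.7% (log2 fold change -0.30, standard error 0.072, adjusted p = 0.0117). RFC5 had 33.3, 33.2, 33.5 and 47.0 CPM in TNF libraries 1 to 4, against 46.8, 45.9, 49.6 and 56.7 CPM in NT libraries 1 to 4. TNF library 4 stood well above the other 3 TNF libraries and just above NT libraries 1 and 2, so that the groups overlapped. RFC5 fell by 26.1% (log2 fold change -0.44, standard error 0.12, adjusted p = 0.0263), and the call was lost without TNF library 1, 2 or 3 or NT library 3 or 4 (adjusted p up to 0.075). RFC5 was lower with TNF in each experiment, with log2 differences of -0.49, -0.47, -0.56 and -0.27 in experiments 1 to 4. Its exons overlap WSB2 on the other strand.

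PCNA, the clamp that tethers the polymerases, was also chosen after its values were seen. PCNA had 189, 175, 171 and 194 CPM in TNF libraries 1 to 4, against 192, 225, 219 and 235 CPM in NT libraries 1 to 4. TNF library 4 was just above NT library 1, the lowest NT library, and all other TNF libraries were below every NT library. PCNA fell by 16.3% (log2 fold change -0.26, standard error 0.080, adjusted p = 0.0393), and the call was lost without TNF library 1, 2 or 3 or NT library 2, 3 or 4 (adjusted p up to 0.107). Within experiment 1 the log2 difference of PCNA was only -0.022, against -0.37, -0.36 and -0.27 in experiments 2 to 4. RFC4, the remaining small subunit, averaged 20.9 ± 0.663 CPM with TNF and 23.9 ± 2.89 CPM in NT cells (SD, n = 4 each), and NT library 1 was below 3 of the TNF libraries (log2 fold change -0.19, adjusted p = 0.202; 0.115 with the block). The exons of RFC4 overlap EIF4A2 on the other strand.

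Of the 6 genes of polymerases and primase, 2 fell in edgeR's test and 5 with the block, against 9.9% and 18.2% of all genes. POLE3 and POLE4, subunits of polymerase epsilon outside the 39, did not pass (log2 fold change -0.22 and 0.025, adjusted p = 0.362 and 0.927 from edgeR). POLE3 passed with the block (adjusted p = 0.0163). Both subunits of polymerase epsilon among the 39, the leading strand enzyme, fell. POLE, its catalytic subunit, had 67.2, 53.6, 60.6 and 58.9 CPM in TNF libraries 1 to 4, against 81.6, 70.2, 78.5 and 75.5 CPM in NT libraries 1 to 4. Library 1 was the highest and library 2 the lowest of each group, and the groups did not overlap. POLE fell by 21.4% (log2 fold change -0.35, standard error 0.084, adjusted p = 0.0118). POLE2, its accessory subunit, was the least expressed of the 39 and had 7.66, 6.97, 7.16 and 7.41 CPM in TNF libraries 1 to 4, against 9.23, 9.07, 11.0 and 9.04 CPM in NT libraries 1 to 4. NT library 3 was above the other NT libraries, and all TNF libraries were lower than those. POLE2 fell by 23.7% (log2 fold change -0.39, standard error 0.11, adjusted p = 0.0236), and the call was lost without TNF library 2 or 3 or NT library 3 (adjusted p up to 0.0753). Its counts per library were between 227 and 432.

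POLD1, the catalytic subunit of polymerase delta, had 120.1, 99.4, 102 and 110.5 CPM in TNF libraries 1 to 4, against 134, 117, 131 and 121 CPM in NT libraries 1 to 4. The TNF library of experiment 1 lay among the NT libraries, and the other TNF libraries were below them. POLD1 did not pass (log2 fold change -0.22, standard error 0.081, adjusted p = 0.0766) and passed with the block (adjusted p = 0.00876). POLA1 and PRIM1, the polymerase and the primase that start each new strand, averaged 55.9 ± 8.28 CPM with TNF and 66.2 ± 9.71 CPM in NT cells (SD, n = 4 each) and 29.9 ± 4.40 CPM with TNF and 35.0 ± 2.83 CPM in NT cells (SD, n = 4 each). Both had overlapping groups and passed only with the block (adjusted p = 0.00725 and 0.0217). PRIM1 shares exon positions with NACA on the same strand, and POLD1 with a gene without a symbol on the same strand. The part of shared reads in these counts was not tested. POLD3, a subunit of polymerase delta, averaged 33.6 ± 2.07 CPM with TNF and 37.7 ± 2.57 CPM in NT cells (SD, n = 4 each), and passed neither test (adjusted p = 0.172 and 0.0676).

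Of the 4 genes of Okazaki fragment maturation and single-strand binding, 0 passed in edgeR's test, 0 had an unadjusted p under 0.05, and DESeq2 and limma voom called 0. With the block 2 of the 4 fell. The shares of all genes that fell were 9.9% without the block and 18.2% with it. RPA1, the large subunit of the protein that coats single-stranded DNA, had 152, 141, 149 and 147 CPM in TNF libraries 1 to 4, against 165, 155, 169 and 156 CPM in NT libraries 1 to 4. All TNF libraries were below all NT libraries, but by small steps (log2 fold change -0.13, standard error 0.062, adjusted p = 0.156; 0.0476 with the block). LIG1, the ligase that seals Okazaki fragments, had 69.5, 50.9, 55.9 and 55.8 CPM in TNF libraries 1 to 4, against 77.3, 57.9, 63.7 and 65.2 CPM in NT libraries 1 to 4. The groups overlapped, with library 1 the highest of each, while within the experiments the log2 difference of TNF minus NT was -0.15, -0.19, -0.19 and -0.22 in experiments 1 to 4, lower with TNF in each. LIG1 did not pass (log2 fold change -0.19, standard error 0.11, adjusted p = 0.282) and passed with the block (adjusted p = 0.012). FEN1, the nuclease that trims the flap of each Okazaki fragment, had 244, 214, 229.5 and 263 CPM in TNF libraries 1 to 4, against 225, 251, 246 and 242 CPM in NT libraries 1 to 4. The NT libraries lay within the range of the TNF libraries, and the log2 fold change was -0.020 with a standard error of 0.078 (adjusted p = 0.89). FEN1 shares exon positions with FADS2 on the same strand, a gene that rose with TNF (log2 fold change 0.40, adjusted p = 0.00793 from edgeR), and the part of its reads in the counts of FEN1 was not tested. RPA2, the middle subunit of the coating protein, averaged 67.7 ± 8.79 CPM with TNF and 66.8 ± 5.40 CPM in NT cells (SD, n = 4 each), with a log2 fold change of 0.020 (adjusted p = 0.917).

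**Figure D3:**
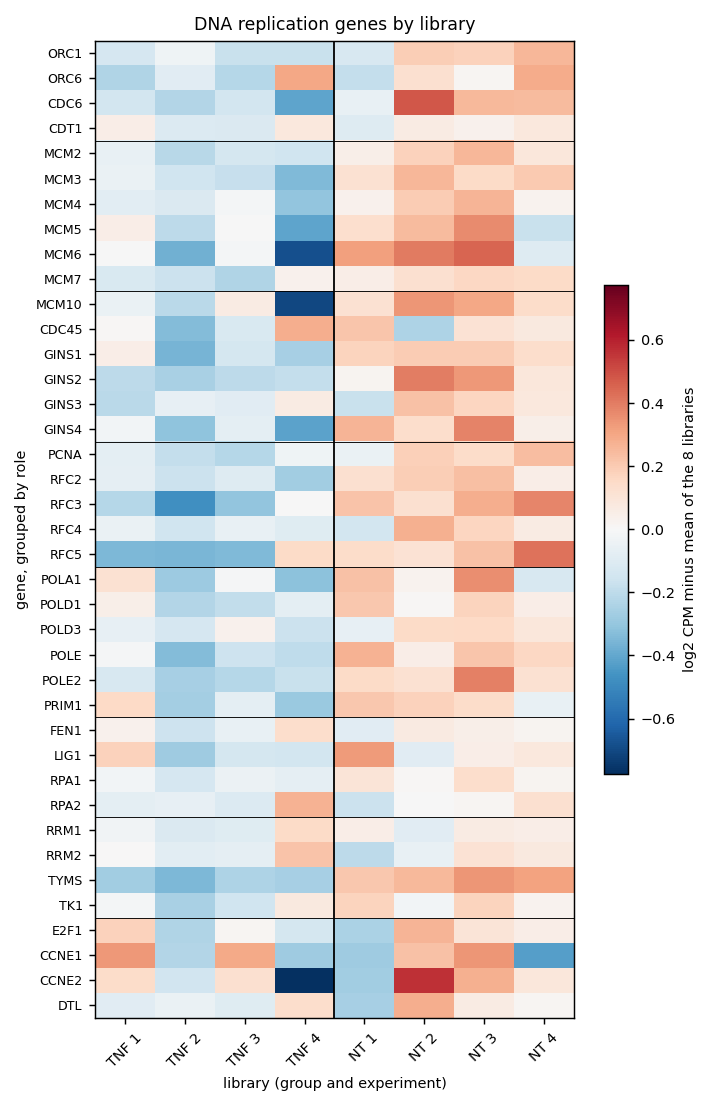
Deviation of each of the 39 DNA replication genes from its mean of the 8 libraries (colour, log2 CPM), with the 4 TNF libraries left of the 4 NT libraries and genes grouped by role. All 39 genes are below their mean in TNF library 2, 26, 34 and 27 of the 39 are so in TNF libraries 1, 3 and 4, and 15, 6, 0 and 5 are so in NT libraries 1 to 4.

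Of the genes of deoxynucleotide supply, only TYMS passed in edgeR's test, and TYMS and TK1 passed with the block. Without and with the block, 9.9% and 18.2% of all genes fell. TYMS, the thymidylate synthase that makes dTMP from dUMP, had the largest fall and the smallest p of all 39. It had 186, 175, 189 and 187 CPM in TNF libraries 1 to 4, against 258, 265, 283 and 277 CPM in NT libraries 1 to 4. Every TNF library was below every NT library by a wide margin, and neither group showed a library that stood apart. TYMS fell by 32.0% (log2 fold change -0.56, standard error 0.063, adjusted p = 1.09e-04), and its log2 differences within the experiments were -0.47, -0.60, -0.58 and -0.57 in experiments 1 to 4. It was called under each of the 21 settings, with log2 fold changes between -0.64 and -0.53. TYMS lies on chromosome 18 (GRCh38, 657653 to 673578, plus strand), and its exons overlap TYMSOS and ENOSF1 of the opposite strand. TYMSOS (0.479 CPM with TNF and 1.01 CPM in NT cells, log2 fold change -1.06, adjusted p = 0.0193) and ENOSF1 (7.29 CPM with TNF and 9.76 CPM in NT cells, log2 fold change -0.42, adjusted p = 0.0162) were also lower. Both are far below TYMS in level, and their part in its counts was not tested. The 250 bases before the start of TYMS hold a single E2F match, 39 bases before the start and in capitals here, and no CCAAT:
TYMS, chr18:657403-657652, plus strand: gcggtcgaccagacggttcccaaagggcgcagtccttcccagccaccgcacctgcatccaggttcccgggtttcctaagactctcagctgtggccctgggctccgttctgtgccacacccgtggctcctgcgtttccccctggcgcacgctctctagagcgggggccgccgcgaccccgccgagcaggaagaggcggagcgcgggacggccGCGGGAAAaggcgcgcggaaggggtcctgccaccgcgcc

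The other 3 genes of nucleotide supply did not pass in edgeR's test. TK1, the thymidine kinase of the salvage pathway, had 161, 137, 146 and 171 CPM in TNF libraries 1 to 4, against 184, 161, 184 and 166 CPM in NT libraries 1 to 4. TNF library 4 lay among the NT libraries, and in that experiment TK1 was slightly higher with TNF. TK1 did not pass (log2 fold change -0.17, standard error 0.086, adjusted p = 0.184) and passed by a small margin with the block (adjusted p = 0.0489). RRM1, the large subunit of ribonucleotide reductase, had 182, 171, 173 and 205 CPM in TNF libraries 1 to 4, against 192, 174, 193 and 191 CPM in NT libraries 1 to 4. The groups overlapped (log2 fold change -0.038, standard error 0.076, adjusted p = 0.776). RRM2, the small subunit whose level limits the enzyme in S phase, was chosen after its values were seen and had 411, 387, 391 and 478 CPM in TNF libraries 1 to 4, against 357, 395, 443 and 433 CPM in NT libraries 1 to 4. TNF library 4 was the highest of all and the groups overlapped, with a log2 fold change of 0.034 and a standard error of 0.095 (adjusted p = 0.846). The 95% interval (t distribution, 6 residual degrees of freedom) of that log2 fold change runs from -0.20 to 0.27, whereas that of TYMS runs from -0.71 to -0.40. The listed promoter of RRM2 held 0 of the E2F letters and 3 CCAAT.

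Of the 4 genes of G1/S control, 0 passed in edgeR's test without or with the block, 0 had an unadjusted p under 0.05, and DESeq2 and limma voom called 0. Over all genes tested, 9.9% were called lower and 14.5% higher without the block. CCNE2, a cyclin that activates CDK2, had 23.1, 18.9, 22.8 and 12.2 CPM in TNF libraries 1 to 4, against 17.3, 30.9, 25.3 and 22.2 CPM in NT libraries 1 to 4. The libraries were spread widely in both groups and overlapped (log2 fold change -0.31, standard error 0.22, adjusted p = 0.35). E2F1, an activating E2F factor, had 87.7, 66.0, 78.4 and 70.6 CPM in TNF libraries 1 to 4, against 65.5, 93.2, 83.2 and 80.5 CPM in NT libraries 1 to 4. TNF library 1 was the highest with TNF, NT library 1 was the lowest without it, and the groups overlapped (log2 fold change -0.090, standard error 0.12, adjusted p = 0.649). DTL, the substrate receptor of the ligase that degrades CDT1, had 118, 121, 117 and 137 CPM in TNF libraries 1 to 4, against 105, 152, 131 and 126 CPM in NT libraries 1 to 4, with overlapping groups (log2 fold change -0.060, standard error 0.11, adjusted p = 0.746). CCNE1, the other CDK2 cyclin, was chosen after its values were seen and had 21.0, 14.2, 20.5 and 13.8 CPM in TNF libraries 1 to 4, against 13.8, 19.5, 21.1 and 12.4 CPM in NT libraries 1 to 4. Libraries 1 and 3 with TNF and libraries 2 and 3 without it were the high ones (log2 fold change 0.059, standard error 0.20, adjusted p = 0.873).

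Within the experiments, the replication genes were lower with TNF in each, by different amounts. The median log2 difference of TNF minus NT over the 39 genes was -0.11, -0.37, -0.32 and -0.24 in experiments 1 to 4, while that over all genes tested was between -0.0038 and 0.0061. All 39 genes were lower with TNF in experiments 2 and 3, and 30 of 39 were lower in experiments 1 and 4. Counts of genes lower in the single experiments were not made over all genes. Of the 39, 26 were lower in all 4 experiments, 8 in 3 and 5 in 2. Those 5, FEN1, RPA2, RRM2, CCNE1 and DTL, were higher with TNF in experiments 1 and 4. The median of the 4 G1/S control genes was 0.42 in experiment 1 and -0.47 in experiment 2. E2F1 differed by 0.42, -0.50, -0.086 and -0.19 in experiments 1 to 4, and CCNE1 by 0.61, -0.45, -0.044 and 0.15 in experiments 1 to 4. CCNE2 differed by 0.41, -0.71, -0.15 and -0.86 in experiments 1 to 4. In experiment 1 these 3 were thus higher with TNF while the MCM genes were slightly lower, by a median of -0.14. Without both libraries of experiment 1, an alternative added after these values were seen, all 39 log2 fold changes were negative, and 12 genes were called lower and 0 higher without the block, against 5.81% lower and 10.6% higher of all genes. ORC1 was among the 12, and MCM6, MCM7, RFC5 and POLE2 were no longer called. With the block 25 were called lower and 0 higher, against 13.1% lower and 16.9% higher of all genes. They were not the same 25 as in all 8 libraries, since RFC4, E2F1 and CCNE2 had joined and LIG1, RPA1 and TK1 had been lost.

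**Figure D4:**
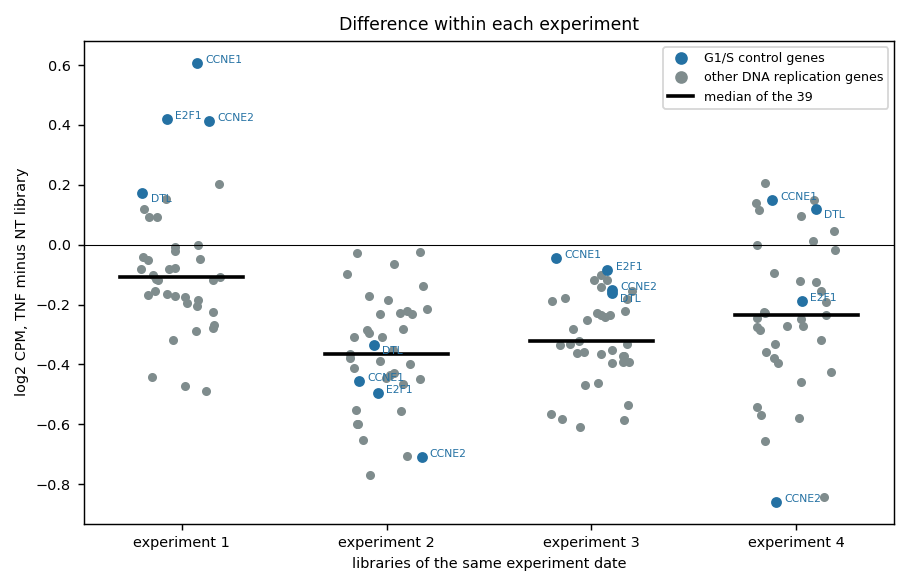
Log2 CPM of the TNF library minus that of the NT library of the same experiment (y axis), 1 point per gene, with the 4 G1/S control genes in blue and named, the other 35 in grey and the median of the 39 as a bar. The median is below 0 in each experiment, from -0.37 to -0.11, and the G1/S control genes range from 0.61 (CCNE1, experiment 1) to -0.86 (CCNE2, experiment 4).

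Levels between genes are compared per kb of the Ensembl canonical transcript (CPM per kb). MCM7 was the highest of the 39 in both groups, with 174 CPM per kb with TNF and 206 CPM per kb in NT cells. PCNA followed, with 143 CPM per kb with TNF and 171 CPM per kb in NT cells. TYMS was the third in NT cells, at 168 CPM per kb, and the fifth with TNF, at 114 CPM per kb, below RRM2 (128 with TNF and 125 in NT cells) and FEN1 (118 with TNF and 119.5 in NT cells). The 6 MCM genes were not expressed evenly, since MCM6 was the lowest, at 21.9 CPM per kb with TNF and 31.5 CPM per kb in NT cells. POLE2 was the lowest of all, at 4.31 CPM per kb with TNF and 5.66 CPM per kb in NT cells, and GINS4 was next, at 5.84 CPM per kb with TNF and 7.77 CPM per kb in NT cells. One transcript per gene was used for the length, so these levels are approximate.

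The lists of related genes were set beside the 39. Over all genes tested, 9.9% fell and 14.5% rose in edgeR's test, and 18.2% fell and 21.3% rose with the block. Of 34 other genes of the replication machinery, 5 fell (14.7%) and 1 rose (2.94%) in edgeR's test (median log2 fold change -0.15). With the block 12 of these 34 fell and 1 rose. With the NT dates of the single records 0 of them fell and 1 rose, against 4.95% lower and 9.62% higher of all genes. The counts with the block in the other lists rest on the dates of the titles as well. DSCC1, a subunit of an alternative clamp loader, fell (log2 fold change -0.48, adjusted p = 0.00713), as did TIPIN, a fork protection factor (-0.39, adjusted p = 0.0203). POLD4, the smallest subunit of polymerase delta, rose (log2 fold change 0.76, adjusted p = 9.59e-04). It had 35.1, 29.8, 31.1 and 32.0 CPM with TNF, against 23.4, 15.5, 18.3 and 18.4 CPM in NT libraries, without overlap. POLD1 and POLD3, the subunits of the same enzyme among the 39, had negative log2 fold changes (-0.22 and -0.16). Of 17 other genes of nucleotide supply, 1 fell and 2 rose in edgeR's test (median log2 fold change -0.09). With the block 5 fell and 3 rose, and with the NT dates of the single records 1 fell and 0 rose. Their shares in edgeR's test, 5.88% and 11.8%, were below those of all genes. SHMT1, which makes the folate cofactor that TYMS uses, fell (-0.57, adjusted p = 0.00114). SAMHD1, which degrades dNTPs, rose (0.57, adjusted p = 0.0445), and so did TK2, the mitochondrial thymidine kinase (0.48, adjusted p = 0.0101).

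Of 9 genes of chromatin assembly in S phase, 1 fell (11.1%, against 9.9% of all genes, median log2 fold change -0.21). With the block 5 of the 9 fell, against 18.2% of all genes. With the NT dates of the single records 1 of the 9 fell, against 4.95% of all genes. The 1 in edgeR's test was CHAF1B, a subunit of the histone chaperone CAF-1 that PCNA recruits (log2 fold change -0.58, adjusted p = 0.0230). Of 12 genes of mismatch and homologous repair, 2 fell (16.7%, median log2 fold change -0.23), and 9 fell and 1 rose with the block. The 2 were BRCA2, a tumour suppressor that acts in homologous recombination (-0.36, adjusted p = 0.0311), and BLM, a helicase that resolves recombination intermediates (-0.27, adjusted p = 0.0449). Of 23 genes of E2F, RB and CDK2 control, 4 rose and 4 fell with the block. With the NT dates of the single records 1 rose and 1 fell. In edgeR's test 2 rose and 2 fell (median log2 fold change -0.08). That is 8.70% in each direction, below the 14.5% higher and 9.9% lower of all genes. CDKN1A, the inhibitor p21 that blocks CDK2 and binds PCNA, rose most. It had 199.7, 204, 189 and 289 CPM with TNF, against 77.1, 88.9, 84.8 and 115 CPM in NT libraries. The groups were far apart (log2 fold change 1.27, standard error 0.16, adjusted p = 2.18e-04). E2F8, a repressive E2F factor, fell (-0.56, adjusted p = 0.0108), and E2F7, its closest relative, rose (0.37, adjusted p = 0.0117).

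The mitosis list stood beside these without a call. Of 19 genes of mitosis, 0 fell and 0 rose in edgeR's test, 0 had an unadjusted p under 0.05 in either direction, and DESeq2 and limma voom called 0. The median log2 fold change was 0.05. It changed sign with upper-quartile factors (-0.014) and library totals (-0.044), where the median of all genes was -0.062 and -0.086. The standard errors of the 19 ran from 0.10 (MKI67) to 0.32 (UBE2C). The absence of calls therefore does not show that these genes did not fall. Over all genes tested, 9.9% fell and 14.5% rose in edgeR's test. With the block 1 rose, UBE2C, a ubiquitin-conjugating enzyme of the anaphase-promoting complex (log2 fold change 0.62, adjusted p = 0.00479), named after its value was seen. With the NT dates of the single records 0 of the 19 fell and 0 rose. MKI67, a general proliferation marker also named after its value was seen, had 698, 668, 699.8 and 588 CPM with TNF, against 804, 606, 644 and 726 CPM in NT libraries, with overlapping groups (log2 fold change -0.07, adjusted p = 0.69). These lists are described by counts, and the difference between them and the 39 genes was not tested.

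**Figure D5:**
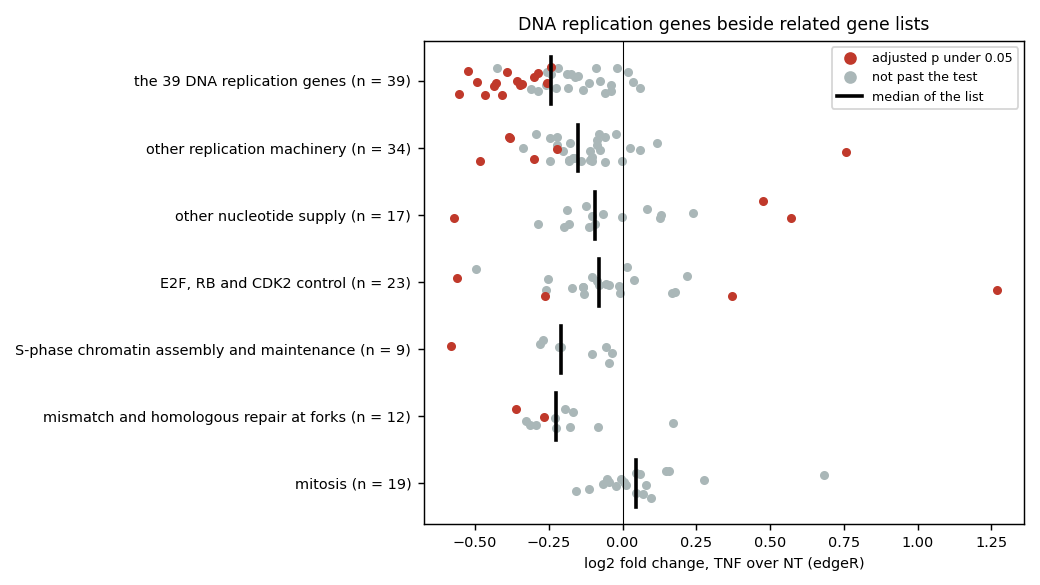
Log2 fold change, TNF over NT, of the 39 DNA replication genes and of the genes of 6 related lists (x axis, 1 point per gene), with genes past edgeR's test in red and the median of each list as a bar. The median is -0.24 for the 39 and 0.05 for the 19 genes of mitosis, and CDKN1A (1.27) and POLD4 (0.76) stand far to the right.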

How the data were processed

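RNA from A375 cells (4 TNF and 4 NT libraries, 4 independent experiments) was prepared with a stranded mRNA kit. The authors aligned the reads with bowtie2 to the GRCh38 transcriptome and deposited expected counts per gene from RSEM 1.2.25, neither normalized nor filtered. Use of strand in counting is not given in the sources used here. Rounding the expected counts altered their sum by 0.00585%. The low-count filter of edgeR (minimum count 10, minimum total 15) left 16186 of 60710 genes. The test was edgeR 4.0.16 (robust quasi-likelihood, TMM, treatment only) in R 4.3.3, with p-values adjusted by Benjamini-Hochberg across every gene tested and called under 0.05. A standard error is the coefficient over the root of its F statistic. P-values measure the spread between these libraries. Alternatives were DESeq2 1.42.0, limma 3.58.1 (voom), other scaling factors, filters and thresholds, and left-out libraries. The test was also run on simulated data of 13542 genes, of which few were changed. There edgeR recovered 1.49% of 67 changes of 1.2-fold, 32.8% of 67 of 1.4-fold and 81.8% of 66 of 2-fold. Of its calls 1.28% were false, against 17.8% for DESeq2 and 3.70% for voom. Far more genes were called in the data, so these shares need not hold there. A gene that did not pass is not shown to be unchanged.

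Samples were grouped by treatment label and numbered by the experiment date of their titles. The dates pair the libraries, since the labels give each date to 1 TNF and 1 NT library. Both deviated together from their group means over all genes (correlations of 0.35, 0.17, 0.24 and 0.46 in experiments 1 to 4). Between libraries of different dates these correlations ran from -0.40 to 0.23, the highest for TNF library 3 with NT library 1. Over the replication genes, TNF library 1 correlated more with NT library 3 (0.40) than with NT library 1 (0.29). TNF libraries 2, 3 and 4 correlated most with the NT library of their own date (0.46, 0.61 and 0.71). Whether the dates of the titles are the right ones was not tested. The file stored under each of the 4 NT records holds the counts of another experiment's NT library, so the table of the whole series was used, whose columns carry the titles. No 2 libraries of a group agreed within sampling noise (lowest chi-square over its degrees of freedom 12.3).

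The 39 genes and all lists were chosen with earlier results of these data known. Genes shown in all libraries are the 3 with the smallest unadjusted p of each role group. In related lists up to 3 genes with the largest change past the threshold are named. Any other is said to be chosen after its values were seen. Positions and transcript lengths come from GENCODE 44, which is not the release the authors used, and promoters from the first RefSeq entry per gene. Protein sequences were not used here.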

Additional observations from a re-analysis of the deposited data

Results flagged for a closer look

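In 78 sets of 4 libraries (39 genes in TNF and in NT), 4 had a library far from the other 3 by Dixon's test, against 3.9 that chance gives at 1 in 20. RFC5 in TNF library 4 had a log2 CPM of 5.56 (47.0 CPM), against 33.2 to 33.5 CPM in the other TNF libraries. RPA2 in TNF library 4 had a log2 CPM of 6.34 (80.9 CPM), against 62.3 to 64.0 CPM in the other TNF libraries. POLE2 in NT library 3 had a log2 CPM of 3.46 (11.0 CPM), against 9.04 to 9.23 CPM in the other NT libraries. RRM1 in NT library 2 had a log2 CPM of 7.44 (174 CPM), against 191 to 193 CPM in the other NT libraries. TNF library 4 and NT library 2 were also among the 3 libraries with more counts of 7SL, 7SK and ribosomal RNA genes, and the part of these in the values was not tested.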

How the results depend on the processing

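The 15 lower calls among the 39 genes became 25 with the replicate block, 5 with the block on the counts filed under the single records, whose NT dates are crossed, 4 at an adjusted p under 0.01 and 0 when a log2 fold change beyond 1 was also required. The shares of all genes called lower were 9.9%, 18.2%, 4.95%, 4.77% and 2.39% in the same order. Leaving out single libraries gave 7 to 15, against 6.79% to 11.4% of all genes. Without experiment 1 the replicate block gave 25, against 13.1% of all genes. No setting called a replication gene higher. Other tools, scaling factors and filters gave 14 to 21, against 4.89% to 15.5% of all genes. The median log2 fold change of the 39 stayed between -0.33 (library totals) and -0.21 over the settings. Over all genes, calls split into 2345 higher and 1603 lower, 2045 and 2196 with upper-quartile factors, and 1925 and 2514 with library totals, which moved the median of all genes to -0.062 and -0.086. Of 897 member values under 23 alternatives, 732 kept direction and side of the threshold, 78 lost the call, 58 gained it and 29 changed sign, in 8 genes and none of them called there. RPA2 was -0.039 with upper-quartile factors, -0.066 with library totals, -0.038 without experiment 4, -0.0078 without the 3 libraries with more ribosomal RNA, -0.0021 without experiment 1 and -0.010 with the replicate block there. RRM2 was -0.025, -0.050, -0.013, -0.014, -0.018 and -0.023 under the same 6. CCNE1 was -0.016 with library totals and -0.13 and -0.12 without experiment 1, without and with the replicate block. Without the 3 libraries DTL was 0.011, E2F1 0.059 and CCNE2 0.023. Over single libraries left out, the log2 fold change ran from -0.075 to 0.059 for RPA2, -0.037 to 0.076 for RRM2, -0.065 to 0.19 for CCNE1, -0.19 to 0.012 for CDC45, -0.071 to 0.025 for FEN1 and -0.15 to 0.030 for DTL. The cause was not tested.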
